A study of Mus musculus with 24 samples.

Results

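The 41 genes described here form the machinery of G2 and mitosis, from the cyclin-dependent kinase *Cdk1* and its cyclins to the motors, checkpoint proteins and chromosome scaffolds that carry out cell division. They were chosen by name, as the rows of the deposited expression table whose mouse gene symbol was on the list, and 40 of the 41 were among its 10818 genes. *Prc1*, which bundles microtubules of the spindle midzone, was not in the table used here. Poly(A) RNA was sequenced from primary mouse epidermal progenitors in 24 libraries, with 3 libraries in each of 8 groups. The cells were established from newborn wild-type pups, grown on mouse 3T3-J2 fibroblast feeders and selected with puromycin after lentiviral infection. In the shRNA experiment they carried a scrambled control hairpin (*shScr*) or a hairpin against *Id1* (*shId1*), whose product is an inhibitor of bHLH transcription factors. In the overexpression experiment all cells carried a doxycycline-inducible *ID1* construct, and were kept without doxycycline (-dox) or with it for 3 days (+dox). Each of the 4 conditions was sampled at 0 h, in low calcium, and 24 h after confluent cultures were moved to high calcium, which starts keratinocyte differentiation. No group was held in low calcium for 24 h, so the effect of calcium and that of time in culture cannot be told apart. The labels call the 3 libraries of a group biological replicates, and no source says whether they came from separate cultures or animals, so each p-value reflects library-to-library spread, which may be technical.

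As background, entry into mitosis is driven by CDK1 bound to cyclin A2 and then to B-type cyclins, released from inhibitory phosphorylation by CDC25 phosphatases. The spindle checkpoint holds chromosome separation until every kinetochore is attached, after which the anaphase-promoting complex (APC/C) destroys cyclin B and cytokinesis follows. Most of these genes are transcribed in a burst in G2 and M. Their promoters are known for a CCAAT box, bound by NF-Y, and a cell cycle genes homology region (CHR), through which the DREAM and MuvB complexes repress them in resting cells and, with B-MYB and FOXM1, activate them in dividing cells. In the epidermis dividing progenitors sit in the basal layer, and cells that move upwards to differentiate leave the cell cycle.

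Promoters of 34 of the 41 genes were found in the RefSeq promoter table of build GRCm38.p6, as 36 windows of 250 bases before to 50 bases after a transcription start. *Ccna2*, *Aurkb*, *Tpx2*, *Incenp*, *Cdc25c*, *Smc4* and *Kif20a* had no entry. Windows were searched on both strands for the CHR, written as TTTGAA or TTCGAA, and for CCAAT; matches of the motifs can share an end base. A CHR match was in 80.6% of the 36 windows against 19.2% of all 32851 windows of the table, and a CCAAT match in 80.6% against 37.4%. Both were in 72.2% of the members' windows and 7.52% of all windows. Both motifs were also frequent in the most similar list. Of 57 windows of other mitosis genes, a list described at the end, 63.2% held a CHR, 73.7% a CCAAT and 50.9% both, and of 36 windows of DNA replication genes 16.7% held a CHR and 58.3% a CCAAT. An arrangement examined after the sequences had been seen, a CCAAT beginning 20 to 40 bases before a CHR, was in 47.2% against 0.968% of all windows and 19.3% of those of other mitosis genes. A match is a description of letters in the window, not a known site. The windows from 100 bases before to 30 bases after the start are printed below for 6 genes whose values recur in the results, each 5′ to 3′ in the direction of transcription, with CHR and CCAAT matches on either strand in capitals (TTCAAA and ATTGG are the same motifs read on the other strand).
Cdk1: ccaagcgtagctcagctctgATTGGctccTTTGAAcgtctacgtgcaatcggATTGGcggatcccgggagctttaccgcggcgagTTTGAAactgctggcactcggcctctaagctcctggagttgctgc
Ccnb2: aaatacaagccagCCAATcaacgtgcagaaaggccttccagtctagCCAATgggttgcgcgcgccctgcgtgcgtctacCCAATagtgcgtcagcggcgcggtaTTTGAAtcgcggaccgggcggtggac
Kif11: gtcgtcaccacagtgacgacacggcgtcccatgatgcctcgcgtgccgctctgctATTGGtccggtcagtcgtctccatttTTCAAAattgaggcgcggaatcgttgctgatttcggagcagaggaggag
Bub1: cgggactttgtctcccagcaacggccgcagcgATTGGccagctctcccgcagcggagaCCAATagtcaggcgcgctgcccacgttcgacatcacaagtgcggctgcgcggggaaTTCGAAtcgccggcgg
Ube2c: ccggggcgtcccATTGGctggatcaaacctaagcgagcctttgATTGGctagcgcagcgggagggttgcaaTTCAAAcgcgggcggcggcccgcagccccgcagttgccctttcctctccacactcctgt
Cdc25b: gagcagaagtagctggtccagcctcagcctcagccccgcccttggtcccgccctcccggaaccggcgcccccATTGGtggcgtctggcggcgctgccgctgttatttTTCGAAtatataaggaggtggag

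The window of *Cdk1* lies at chr10:69352883-69353012 on the minus strand, that of *Ccnb2* at chr9:70421525-70421654 on the minus strand, and that of *Kif11* at chr19:37376282-37376411 on the plus strand. Those of *Bub1* (chr2:127831830-127831959, minus strand), *Ube2c* (chr2:164769829-164769958, plus strand) and *Cdc25b* (chr2:131186848-131186977, plus strand) are all on chromosome 2. The CHR nearest the start began 25 bases after the first base of the nearest upstream CCAAT in *Ccnb2*, 26 in *Kif11*, 28 in *Ube2c*, 33 in *Cdk1* and 35 in *Cdc25b*. In *Bub1* the same distance was 56 bases. *Cdc25b*, whose change over 24 h was the smallest in 3 of the 4 conditions, carried both motifs, as did *Cdk1* and *Kif11*, which fell further.

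Values are normalized read counts on the CPM scale, set against a TMM-scaled library size, so they compare a gene between libraries and not genes of different length. Changes are given on the scale of log2(value + 0.5), which understates those of low genes. A gene was called at an adjusted p under 0.05 in limma's moderated test, with Benjamini-Hochberg adjustment over all genes of an experiment. In the 18 libraries in which whole reads could be recovered, the table held between 21442371 and 30353746 reads, and the member with the fewest, *Ndc80*, had at least 52 reads in each of them. The columns taken as *shScr* are named H2BGFP in the table, after a vector, and were assigned as the shRNA control left without columns. *Id1* itself was checked first. It was at 60.7, 103 and 111 in *shScr* and 25.7, 19.7 and 39 in *shId1* at 0 h (adjusted p = 0.018), but at 27.9, 44.8 and 69.6 against 17.6, 40.1 and 29.7 at 24 h, where the groups overlapped and the test did not pass (adjusted p = 0.27). With doxycycline it was at 41.6, 107 and 73 against 10.5, 13.2 and 7.15 at 0 h (adjusted p = 2.51e-06), and at 106, 96 and 76.1 against 73.9, 67.5 and 59.7 at 24 h (adjusted p = 0.23). *Id1* in -dox cells was 2.68 higher on the log2 scale at 24 h than at 0 h, whereas in *shScr* it fell by 0.99, so the depth of silencing or induction at 24 h is not shown by these counts. All 8 basal keratinocyte markers listed were in the table. Of 12 fibroblast markers 2 were (*Postn* and *Sparc*), of 7 melanocyte markers 2, of 6 leukocyte markers 1 and of 10 suprabasal markers 6, while *Krt1*, *Lor*, *Flg* and *Sbsn* were not. Absence from the table does not show low expression, as the paper reports *Krt1* in such cultures. These counts therefore do not show how many other cells were present.

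In growing *shScr* progenitors at 0 h the 40 genes together summed to between 7427 and 7688. Per kilobase (kb) of exon the highest group means were those of *Ube2c* (106), the ubiquitin-conjugating enzyme of the APC/C, *Top2a* (97.2), which untangles sister DNA, and *Cks1b* (94.2), a small CDK adaptor. The lowest were *Ndc80* (8.77), a microtubule-binding subunit of the kinetochore, and *Cdc25c* (9.24) and *Cenpf* (9.25). The length used merges all annotated exons of a gene and can exceed that of its mRNA, so this order is approximate. The sums were 6860 to 7571 in *shId1*, 5660 to 6605 in -dox and 5438 to 5817 in +dox cells at 0 h. The 2 experiments used different constructs and their controls were not compared within 1 design, so the lower level of the -dox cells and the experiment cannot be told apart.

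**Figure D1:**
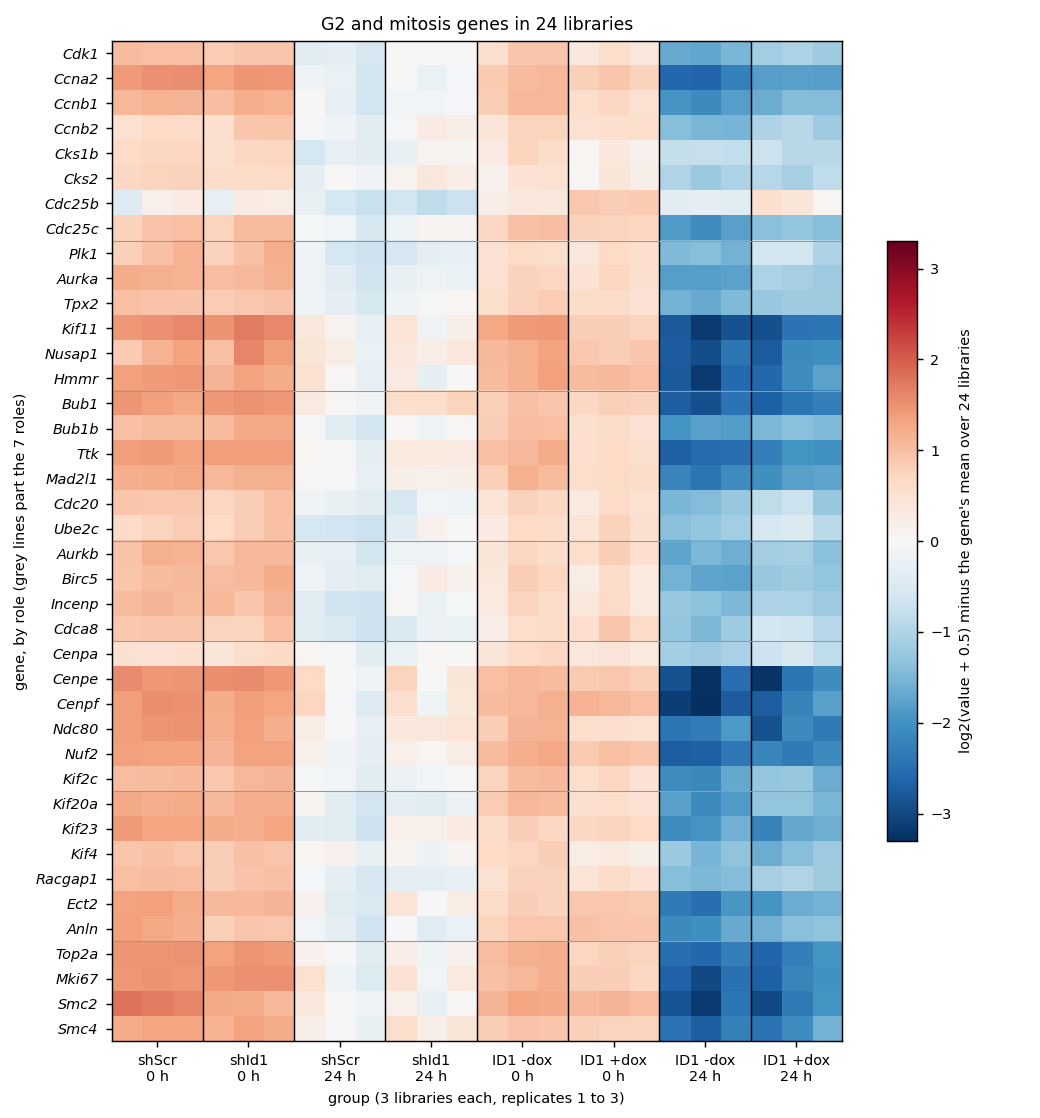
Each row is 1 of the 40 G2 and mitosis genes, ordered by role, and each column 1 of the 24 libraries; the color is log2(value + 0.5) minus that gene's mean over all libraries. The 0 h libraries are red in both experiments except for *Cdc25b* in 1 *shScr* and 1 *shId1* library, the 24 h libraries of the shRNA experiment sit near the mean, and the 24 h libraries of the overexpression experiment are blue, most deeply without doxycycline.

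After 24 h of high calcium the 40 genes were lower in each of the 4 conditions. In *shScr* cells 40 of 40 fell at an adjusted p under 0.05, with a median log2 change of -1.38, or 2.60-fold lower, where 30.1% of all 10790 genes tested fell and the median of all genes was 0.01. Past a further limit of 2-fold, 34 of the 40 fell against 7.97% of all genes. In bulk RNA, fewer cycling cells and less mRNA in each cycling cell cannot be told apart. The summed level dropped to between 2495 and 3503, and the libraries of 0 h and 24 h did not overlap for 39 of the 40 genes, where 32.5% of all genes were lower without overlap.

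Among the genes of the CDK1 engine, *Ccna2* (cyclin A2) was at 251, 266 and 271 in *shScr* at 0 h and at 85.8, 80.2 and 61.7 at 24 h. Its log2 change of -1.80 (SE 0.12, adjusted p = 1.75e-07) was the deepest of the 8 engine genes. *Cdk1*, the kinase itself, went from 385, 369 and 370 to 145, 150 and 127, a change of -1.42 (SE 0.079, adjusted p = 6.8e-08). For both genes all 3 late libraries were below all 3 early ones. The smallest change of all members was in *Cdc25b*, a phosphatase that starts CDK1 activation, which was at 200, 305 and 325 and then at 229, 182 and 164. Here the groups overlapped, and its change of -0.51 (SE 0.20, adjusted p = 0.04) was no longer called without *shScr* 0 h replicate 2 or 3, *shScr* 24 h replicate 2 or 3, or *shId1* 24 h replicate 3, at -0.51 to -0.38. The median over the 8 engine genes was -1.10, with *Ccnb2* (-0.78) and *Cks2* (-0.85) also short of 2-fold.

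The largest fall in *shScr* was in *Kif23*, the motor subunit of centralspindlin, which organizes the midzone before cytokinesis. It was at 107, 98.7 and 98.3 at 0 h and at 30.4, 30.1 and 24.7 at 24 h, 3.53-fold lower (log2 change -1.82, SE 0.093, adjusted p = 4.67e-08). The 6 midzone and cytokinesis genes in the table had a median of -1.53. *Incenp*, the scaffold of the chromosomal passenger complex, went from 188, 198 and 190 to 70.7, 57.2 and 56.1 (log2 change -1.65), and all 4 genes of that complex fell by over 2-fold. *Aurka*, the spindle-pole kinase, had the lowest adjusted p of the spindle assembly genes (2.69e-07), with a change of -1.57. *Bub1*, a kinase of the spindle checkpoint, went from 145, 135 and 129 to 64.8, 54.4 and 48.6, a change of -1.29 (SE 0.10), and *Mad2l1*, another checkpoint protein, changed by -1.33. *Nuf2*, partner of NDC80 at the kinetochore, changed by -1.44 and *Top2a* by -1.56. *Cenpa*, the histone variant that marks centromeres, was the kinetochore gene that moved least, at -0.65, with 126, 123 and 130 at 0 h and 92, 84 and 67.4 at 24 h.

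In *shId1* cells the same 40 genes fell, where 28% of all genes fell, with a median of -1.07, or 2.10-fold lower, and the libraries of the 2 times overlapped for no gene, where 31.1% of all genes were lower without overlap. Past 2-fold the count was 24, against 6.2% of all genes. *Ccna2* was again the deepest, from 233, 258 and 255 at 0 h to 92.3, 79.6 and 88.9 at 24 h (log2 change -1.51, adjusted p = 1.17e-06). *Cks2* was the shallowest, from 35.6, 35.2 and 36.2 to 25, 30 and 27.4 (-0.38, adjusted p = 0.0073). *Aurka* (-1.30), *Mad2l1* (-0.96), *Aurkb* (-1.14), the kinase of the passenger complex, *Kif2c* (-1.12), which disassembles microtubules at centromeres, *Kif23* (-1.05) and *Top2a* (-1.34) led their groups by adjusted p. *Cdk1* and *Bub1* changed by -0.88 and -0.82.

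The overexpression experiment showed a much deeper fall. In -dox cells 40 of 40 genes fell, where 38.3% of all 10789 genes tested fell, with a median log2 change of -2.81, or 7.02-fold lower. Past 2-fold 39 did, against 15.9% of all genes, and *Cdc25b* was the exception. *Kif11*, the motor that pushes spindle poles apart, fell furthest, from 176, 195 and 197 at 0 h to 10.1, 7.73 and 9.38 at 24 h. That is 19.9-fold (log2 change -4.32, SE 0.13, adjusted p = 2.13e-12). *Bub1* went from 90.3, 104 and 99.6 to 7.47, 6.56 and 9.33 (-3.58), and *Ccna2* from 171, 193 and 202 to 15, 14.7 and 19.3 (-3.49). For all 40 genes each late library was below each early one, where 40.7% of all genes were lower without overlap. *Cdk1* fell less, from 274, 354 and 352 to 58.8, 56.3 and 65.4 (-2.42), and *Cdc25b* least, from 313, 343 and 353 to 211, 217 and 211 (-0.65, adjusted p = 2.97e-05).

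By role, the 4 chromosome structure genes fell most in -dox cells (median -3.69), followed by centromere and kinetochore (-3.50), spindle assembly (-3.17), checkpoint and APC/C (-3.02), midzone and cytokinesis (-2.67), CDK1 engine (-2.27) and the chromosomal passenger complex (-2.05). *Nuf2* (-3.77), *Top2a* (-3.59), *Kif20a* (-2.91), a midzone motor, *Bub1b* (-2.82), a checkpoint component, and *Aurkb* (-2.18) had the lowest adjusted p of their groups, all 2.38e-10 or under. In *shScr* the medians of the 7 roles lay between -1.53 and -1.10, and the standard errors of the single genes between 0.079 and 0.24.

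In +dox cells 40 of 40 fell as well, with a median of -2.04, or 4.11-fold lower, where 39.1% of all genes fell, and 39 passed 2-fold, against 14.9%. The libraries of the 2 times overlapped for no gene, where 39.6% of all genes were lower without overlap. *Smc2*, a condensin ATPase, fell furthest, from 102, 106 and 98.6 to 5.64, 9.13 and 11.8 (log2 change -3.51), and *Cdc25b* least, from 505, 473 and 497 to 388, 356 and 281 (-0.54). *Kif11* (-3.36), *Nuf2* (-3.12), *Top2a* (-3.02), *Anln* (-2.37), the anillin scaffold of the cleavage furrow, and *Aurkb* (-1.85) led their groups by adjusted p. *Ccna2*, *Bub1* and *Cdk1* changed by -2.63, -3.20 and -1.56.

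**Figure D2:**
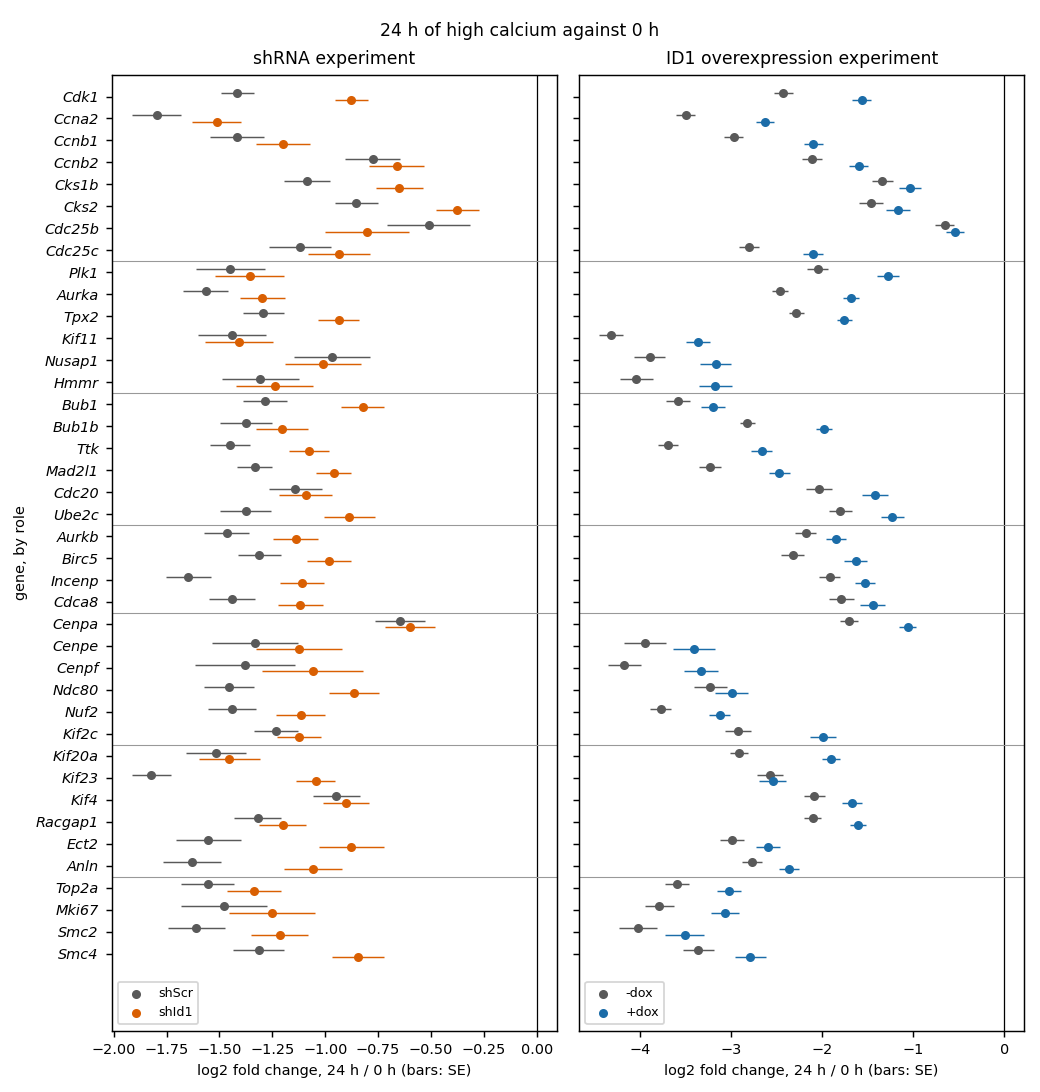
The log2 fold change from 0 h to 24 h of high calcium is shown for each gene, with bars for the standard error, in *shScr* and *shId1* (left) and in ID1 -dox and +dox cells (right); the scales of the 2 panels differ. All points lie under 0. The medians are -1.38 and -1.07 on the left and -2.81 and -2.04 on the right, and *Cdc25b* is nearest 0 in 3 of the 4 conditions.

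The difference in depth between the control arms was tested directly in a fit of all 24 libraries, a comparison added after the values had been seen. The fall in -dox cells was deeper than in *shScr* for all 40 genes in sign and for 35 at an adjusted p under 0.05, where 29.7% of 10818 genes were called in that direction and 23.1% in the other, with a median difference of -1.41 on the log2 scale. Past 2-fold 27 were called, against 13.2% of all genes. *Nusap1*, a microtubule-binding protein of the spindle, differed most (-2.92), followed among its group by *Kif11* (-2.87). *Ttk* (-2.24), the kinase that starts the checkpoint, *Nuf2* (-2.33), *Top2a* (-2.04), *Kif20a* (-1.40), *Birc5* (-1.01), the survivin subunit of the passenger complex, *Ccna2* (-1.70), *Bub1* (-2.30) and *Cdk1* (-1.01) were all called. The 5 genes not called were *Cks1b* (-0.25), *Cdc25b* (-0.14), *Ube2c* (-0.42), *Incenp* (-0.27) and *Cdca8* (-0.35), the last being borealin of the passenger complex. Construct, experiment and culture differed together between these arms and cannot be told apart. The median was -1.25 without *shScr* 24 h replicate 1 and -1.57 without replicate 3.

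Exon length, taken as all annotated exons of a gene merged, moved with these changes. It can exceed the length of the transcript expressed. At 0 h the 2332 genes of longest exon length (7140 bases or more) lay 0.10 to 0.49 higher than the 2332 of shortest (up to 2939 bases), in median log2 deviation from each gene's mean. At 24 h the same quantity was between -0.77 and -0.09 in 10 libraries, and at 0.38 and 0.25 in replicate 1 of *shScr* and replicate 1 of *shId1*. Across the 40 genes, Spearman's rho between exon length and the change over 24 h was -0.56 in -dox, -0.61 in +dox, -0.32 in *shScr* and -0.18 in *shId1* cells, against -0.24, -0.30, -0.20 and -0.19 across all genes of those experiments. These are descriptions across genes measured in the same libraries. The short *Cks2* (0.69 kb) and *Cks1b* (1.13 kb) were among the genes that moved least in -dox cells, and *Cenpf* (15.4 kb) changed by -4.17. With values adjusted for length within each library, all 40 genes remained called in the 4 conditions, and the medians were -2.76 in -dox, -1.96 in +dox, -1.34 in *shScr* and -1.01 in *shId1* cells. The part of length in the order of the genes was not tested.

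**Figure D3:**
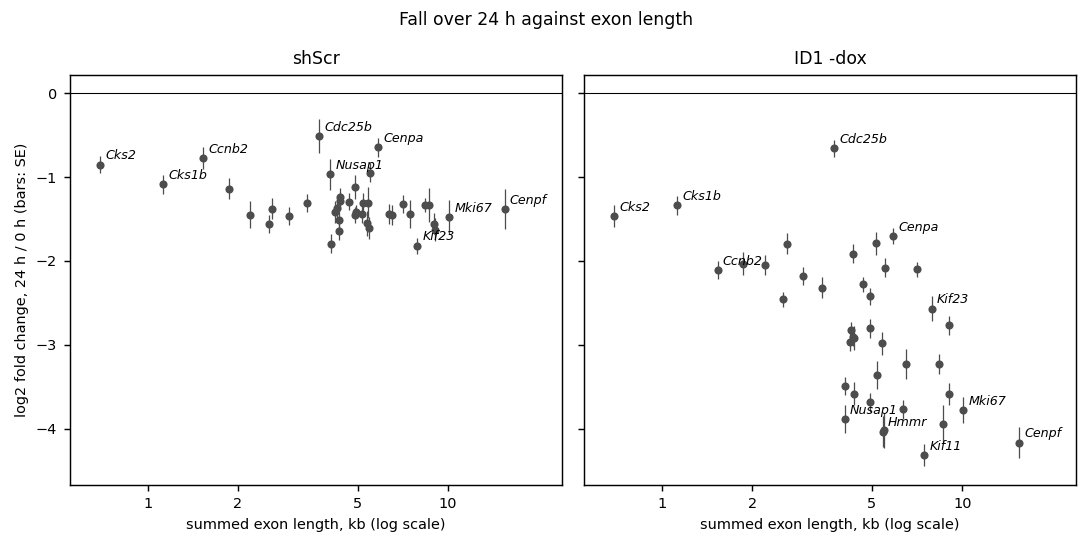
The log2 fold change from 0 h to 24 h is plotted against summed exon length in kb for the 40 genes in *shScr* (left) and ID1 -dox cells (right), with bars for the standard error. In -dox cells the shortest genes, *Cks2* and *Cks1b*, lie near -1.4 and the longest, *Cenpf*, at -4.17; *Cdc25b* lies apart at -0.65.

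Other measured features moved with the fall too. The sum of the 2 fibroblast markers found went from 693 to 964 in *shScr* at 0 h to 209 to 261 at 24 h, and from 592 to 719 down to 372 to 380 in -dox cells. The 2 markers went opposite ways in *shScr*, where 1 rose (log2 change 1.07) and 1 fell (-1.91), while both fell in -dox cells. The sum of the 6 suprabasal markers rose from 597 to 757 up to 1649 to 2721 in *shScr*, where all 6 rose, and from 840 to 1027 up to 1868 to 2145 in -dox cells, where 2 of the 6 rose and 3 fell. The 8 basal markers summed to 25338 to 30148 at 0 h and 31071 to 48752 at 24 h in *shScr*, where 2 rose and 3 fell. The 1 leukocyte marker found went from 2.88 to 3.77 at 0 h up to 22.3 to 28.3 at 24 h in *shScr*. In -dox cells it went from 6.05 to 10.5 up to 27.4 to 43.4. Of the 2 melanocyte markers 1 rose in *shScr* and 1 fell in -dox cells. The part of other cell types in the fall was not tested. The 26 genes with a CHR match had a median of -1.40 in *shScr* and -2.67 in -dox cells, and the 7 without one -1.33 and -3.23.

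The shRNA comparison asked whether cells with the hairpin against *Id1* differ in these genes from control cells of the same time. *Id1* itself was called lower at 0 h and was not called at 24 h. At 0 h *Smc2* was the 1 gene called, at 168, 157 and 149 in *shScr* and 117, 114 and 103 in *shId1*, with no overlap (log2 difference -0.51, SE 0.14, adjusted p = 0.042), where 3.44% of all genes were called lower and 4.03% higher. The median over the 40 genes was -0.05, between -0.51 and 0.22, with 15 above 0 and 25 below, and 2 had an unadjusted p under 0.05. The libraries did not overlap for 9 genes that were lower and 1 that was higher, against 17.6% and 15.4% of all genes. *Cdk1* was at 385, 369 and 370 against 332, 354 and 355 (-0.11, adjusted p = 0.45), *Ccna2* differed by -0.08 and *Bub1* by 0.08, and the libraries of *Ccna2* and *Bub1* overlapped between the groups. *Nusap1* had the highest difference, at 0.22 (adjusted p = 0.53), and the others above 0 beside *Bub1* were *Ccnb1*, *Ccnb2*, *Cdc25b*, *Cdc25c*, *Plk1*, *Kif11*, *Bub1b*, *Ttk*, *Ube2c*, *Birc5*, *Cenpa*, *Cenpe* and *Mki67*, between 0.00 and 0.21. In a fit of all 24 libraries *Smc2* was not called (adjusted p = 0.097) and 1 other gene was called lower. With the replicate number as a block the count was 2, where 1408 of all 10790 genes were called. It was 0 without any 1 of the 6 libraries of 0 h, without *shScr* 24 h replicate 2 or without *shId1* 24 h replicate 3, and 2 without *shScr* 24 h replicate 1 or 3. Of the 6 suprabasal markers 3 were called higher in *shId1* cells at 0 h and none lower, with sums of 540 to 780 against 597 to 757, and neither fibroblast marker was called. Of the 8 basal markers 1 was called higher, as were 1 of the 2 melanocyte markers and the 1 leukocyte marker, and none of these was called lower. Their part was not tested.

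At 24 h 12 of the 40 genes were called higher with *shId1*, 28 were not called and none was lower, where 7.9% of all genes were called higher and 6.72% lower, and 36 of 40 differences were above 0 (median 0.23, all genes 0.01). The libraries of the groups did not overlap for 13 genes, all higher, where 16.3% of all genes were higher without overlap. *Kif23* differed most, at 30.4, 30.1 and 24.7 in *shScr* against 44.5, 45.1 and 48.1 in *shId1*, 1.61-fold (log2 difference 0.69, SE 0.093, adjusted p = 0.00078). *Cdk1* was at 145, 150 and 127 against 186, 188 and 192 (0.43, adjusted p = 0.0042). *Bub1* was at 64.8, 54.4 and 48.6 against 78.3, 78.3 and 87.8 (0.55, adjusted p = 0.0049). In each of these 3 genes every *shId1* library was above every *shScr* library.

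The CDK1 adaptors *Cks1b* (0.39) and *Cks2* (0.36) were called with *Cdk1*, while the cyclins were not (*Ccna2* 0.20, *Ccnb1* 0.22, *Ccnb2* 0.32). Of the 6 checkpoint and APC/C genes 4 were called, *Bub1*, *Ttk* (0.39), *Mad2l1* (0.28) and *Ube2c* (0.56). *Birc5* (0.42) and *Incenp* (0.51) were called in the passenger complex, *Ndc80* (0.40) at the kinetochore and *Smc4* (0.43), the partner of SMC2 in condensin, among chromosome structure genes. None of the 6 spindle assembly genes was called. The 4 genes below 0, none of them called, were *Cdc25b* (-0.21), *Smc2* (-0.11), *Hmmr* (-0.10), a microtubule-binding protein, and *Cdc20* (-0.02), the APC/C activator, and *Kif20a* was at 0.00.

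This difference rested in part on 1 control library. Over the 40 genes the mean log2 level of the *shScr* 24 h libraries ran from 5.70 in replicate 3 to 6.15 in replicate 1, and that of *shId1* from 6.11 to 6.23. Without *shScr* 24 h replicate 3 the median difference was 0.063 and 6 genes were called. Without *shScr* 24 h replicate 1 the median was 0.31 and 15 were called. With a block for each replicate number within each time 16 were called. The count was 5 without *shId1* 24 h replicate 3 and 7 without *shScr* 0 h replicate 2. It was 22 without the libraries numbered 1, which at 24 h lean to genes of long exon length in both arms. Calls over all genes rose in these settings too. They were 3271 of 10790 genes with that block and 2257 of 10767 without the libraries numbered 1. The main fit called 852 of 10790 higher and 725 lower. With every library scaled to the same sum 6 were called. Single markers of fibroblasts and of keratinocyte layers were called too, where 7.9% of all genes were called higher and 6.72% lower. Of the 2 fibroblast markers 1 was called lower in *shId1* cells (log2 difference -1.95), with sums of 213 to 253 against 209 to 261. Of the 6 suprabasal markers 1 was called higher, with sums of 1575 to 2070 against 1649 to 2721, and of the 8 basal markers 1 was called higher and 1 lower. Their part in the difference was not tested.

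The fall over 24 h was shallower in *shId1* than in *shScr* cells in sign for 38 of 40 genes, and the test of that difference called 3, where 3.92% of all genes were called higher and 3.59% lower. The median was 0.30. The genes called were *Kif23* (0.78, SE 0.13, adjusted p = 0.0072), *Cdk1* (0.54, SE 0.11, adjusted p = 0.015) and *Incenp* (0.54, SE 0.15, adjusted p = 0.049). *Bub1* (0.46) and *Ccna2* (0.28) were not called (adjusted p = 0.077 and 0.34). The 2 genes with a deeper fall in *shId1* cells were *Cdc25b* (-0.29) and *Nusap1* (-0.04), with *Kif11* next at 0.03. With the replicate number as a block the count was 7, and with a block for each number within each time it was 14. It was 9 without *shScr* 24 h replicate 1 and 5 without *shId1* 24 h replicate 1, and the median was 0.14 without *shScr* 24 h replicate 3.

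**Figure D4:**
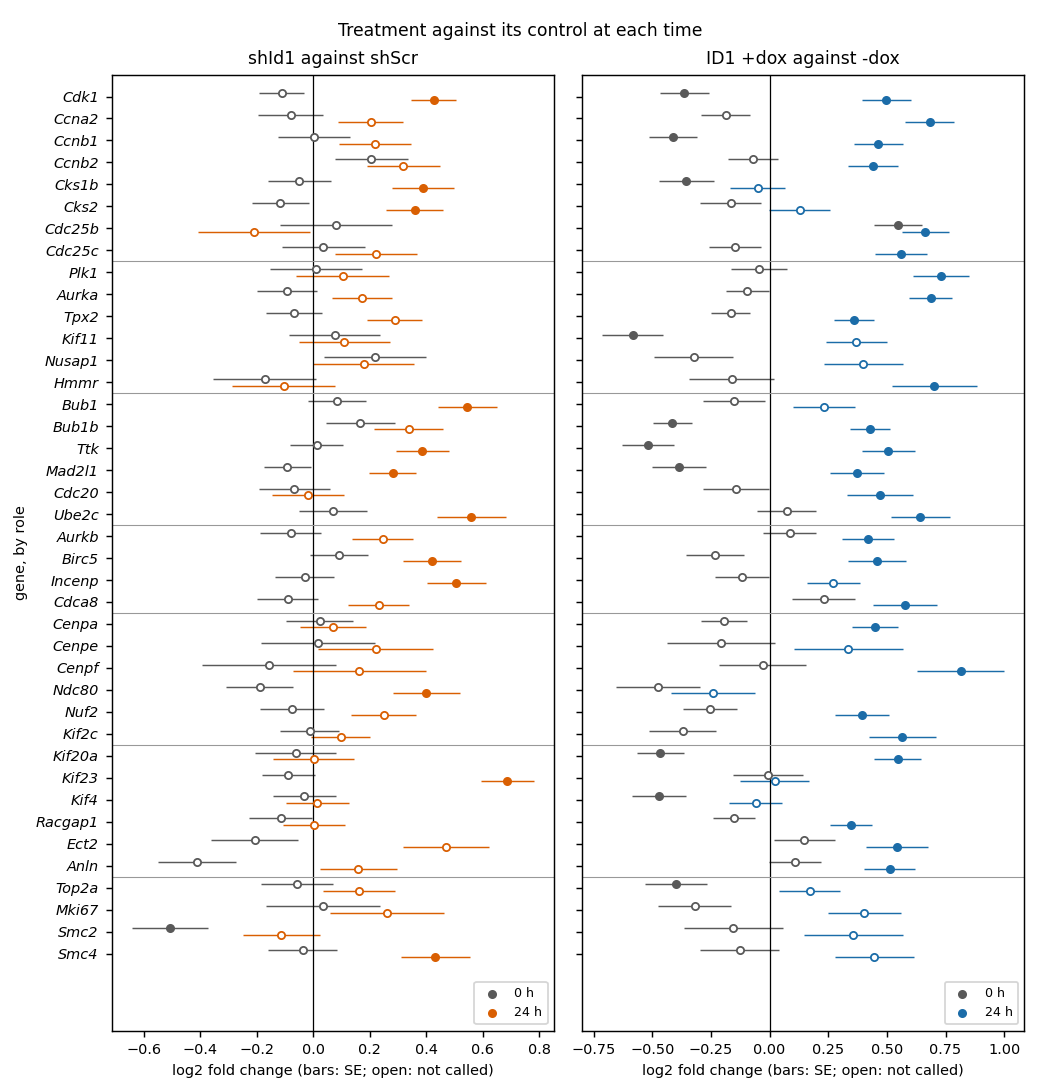
The log2 difference between treated and control cells is shown for each gene at 0 h (grey) and 24 h (color), for *shId1* against *shScr* (left) and ID1 +dox against -dox (right), with bars for the standard error; filled points are called at an adjusted p under 0.05. On the left 1 gene is filled at 0 h and 12 at 24 h, and on the right 11 at 0 h and 26 at 24 h.

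The overexpression comparison asked how cells given doxycycline to induce ID1 differ from cells without it. No cells lacking the construct were given doxycycline, so an effect of doxycycline itself and one of ID1 cannot be told apart. At 0 h 10 of the 40 genes were lower in +dox than in -dox cells and 1 was higher, where 13.8% of all genes were called lower and 20.5% higher, and 34 of 40 differences were below 0 (median -0.17). The libraries did not overlap for 16 genes that were lower and 3 that were higher, against 26% and 27.6% of all genes. *Kif11* differed most, at 176, 195 and 197 without and 127, 129 and 122 with doxycycline (-0.58, SE 0.13, adjusted p = 0.0031). *Bub1b* (-0.41), *Kif20a* (-0.47), *Top2a* (-0.40), *Cdk1* (-0.36), *Ccnb1* (-0.41), *Cks1b* (-0.35), *Ttk* (-0.52), *Mad2l1* (-0.39) and *Kif4* (-0.47), a chromosome-bound motor, were the other genes called lower. *Ccna2* (-0.19) and *Bub1* (-0.15) were not called.

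*Cdc25b* went against the rest. It was at 313, 343 and 353 in -dox and at 505, 473 and 497 in +dox cells, 1.46-fold higher (log2 difference 0.55, SE 0.10, adjusted p = 0.00078), with no overlap. Other genes above 0, none of them called, were *Ube2c* (0.07), *Aurkb* (0.09), *Cdca8* (0.23), *Ect2* (0.15), which activates RhoA at the furrow, and *Anln* (0.11), while *Kif23* was at -0.01. All -dox libraries were below all +dox libraries for *Cdc25b* at 24 h also. The count of genes called at 0 h was 7 without -dox replicate 2 or 3 or without +dox replicate 1 or 3, and 3 in edgeR's test of recovered reads, which holds a single +dox library at this time. Of the 6 suprabasal markers 4 were lower in +dox cells at 0 h, with sums of 567 to 628 against 840 to 1027, and of the 8 basal markers 1 was higher and 3 lower. The 1 leukocyte marker was higher, and no fibroblast or melanocyte marker was called. Their part was not tested.

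At 24 h most of the genes were higher with doxycycline. In +dox cells 26 of the 40 genes were higher than in -dox cells and none lower, where 10.6% of all genes were called higher and 10.9% lower, and 37 of 40 differences were above 0 (median 0.44, or 1.36-fold). The libraries did not overlap for 24 genes, all higher, against 16.8% of all genes. No gene passed 2-fold. *Cenpf*, a large protein of the outer kinetochore, differed most, at 5.43, 4.72 and 7.14 without and 7.25, 10.6 and 14.5 with doxycycline (0.81, SE 0.19, adjusted p = 0.0065). *Aurka* was at 22.6, 22.6 and 23.2 against 38.9, 37.3 and 34.9, 1.61-fold (0.69, SE 0.091, adjusted p = 0.00014), the lowest adjusted p of the members. *Ccna2* was at 15, 14.7 and 19.3 against 26.2, 26.5 and 26.3 (0.68, adjusted p = 0.00042). In all 3 genes each +dox library was above each -dox library.

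By role, 6 of 8 engine genes were called, among them *Cdk1*, at 58.8, 56.3 and 65.4 against 83.4, 89.5 and 82.3 (0.50, adjusted p = 0.004). So were 4 of 6 spindle assembly genes, 5 of 6 checkpoint and APC/C genes led by *Ube2c* (0.64), 3 of 4 passenger complex genes with *Cdca8* at 0.58, 4 of 6 kinetochore genes with *Cenpa* at 0.45, and 4 of 6 midzone genes led by *Kif20a* (0.55). None of the 4 chromosome structure genes was called, at 0.17 to 0.45. *Bub1* was at 7.47, 6.56 and 9.33 against 7.61, 9.46 and 10.6, where the groups overlapped (0.23, adjusted p = 0.22). The 3 genes below 0, none of them called, were *Ndc80* (-0.24), *Kif4* (-0.06) and *Cks1b* (-0.05), and *Kif23*, the leading gene of the *shId1* comparison, was at 0.02.

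The count at 24 h ran from 18 without -dox replicate 2 to 31 without +dox replicate 1. That last library leaned most to genes of short exon length (long minus short -0.77), and in it long genes such as *Cenpe* (4.72 against 8.98 and 11.3 in the other +dox libraries) and *Cenpf* (7.25 against 10.6 and 14.5) were lowest. With values adjusted for length 29 genes were called. The 2 fibroblast markers summed to 334 to 382 in +dox and 372 to 380 in -dox cells at this time, and the 6 suprabasal markers, of which 5 were called lower, to 1327 to 1408 against 1868 to 2145. Their part in the difference was not tested.

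**Figure D5:**
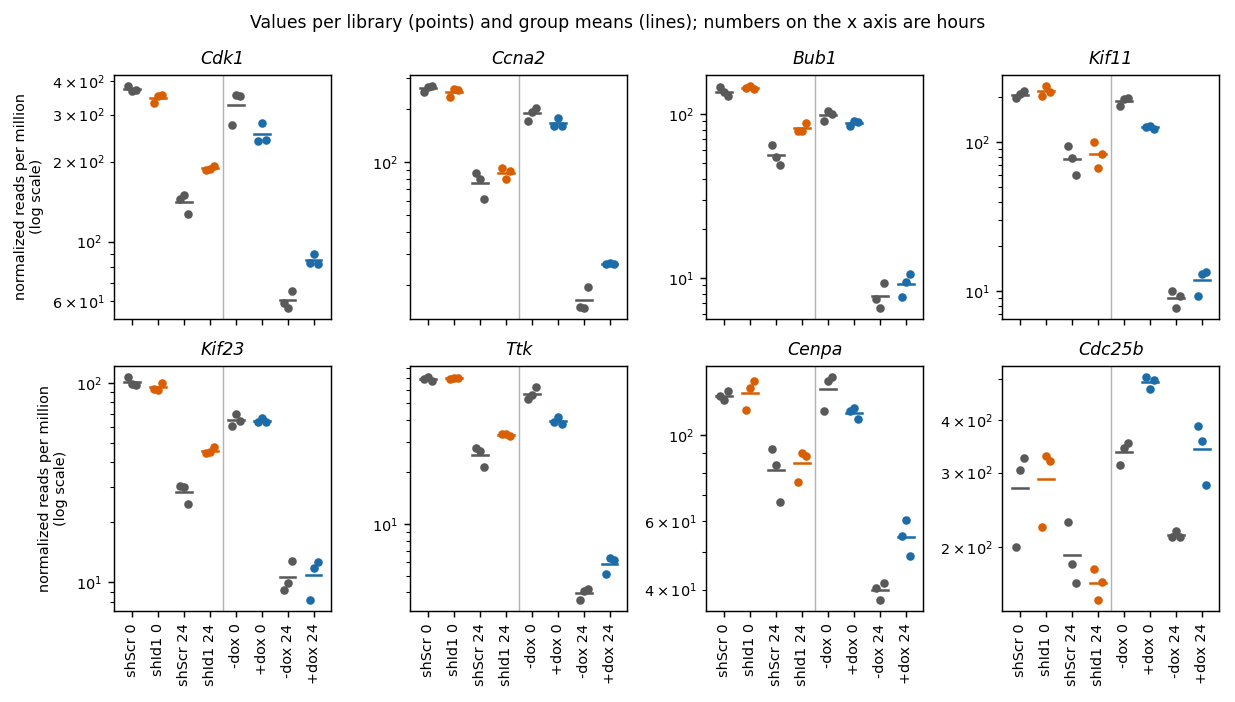
Normalized read counts (CPM scale, log axis) are shown for 8 genes, 1 point for each library and a line for each group mean, with the shRNA experiment left of the grey line and the overexpression experiment right of it. *Cdk1*, *Kif23* and *Ttk* show *shId1* above *shScr* at 24 h, *Ccna2*, *Ttk* and *Cenpa* show +dox above -dox at 24 h, and *Cdc25b* shows +dox above -dox at both times.

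The fall over 24 h was shallower with doxycycline for all 40 genes in sign, and the test of that difference called 20, where 2.37% of all genes were called in that direction and 8.08% in the other. Past 2-fold 2 were called, *Ttk* and *Kif20a*, against 0.473% of all genes. The median was 0.59, against -0.02 for all genes. *Bub1b* (0.84, SE 0.12, adjusted p = 0.000388) and *Kif20a* (1.01, SE 0.14, adjusted p = 0.000365) had the lowest adjusted p, and *Ttk* differed most (1.02), with 53.2, 56 and 61.9 in -dox at 0 h, 39.1, 41.8 and 37.9 in +dox at 0 h, 3.63, 4.09 and 4.17 in -dox at 24 h, and 5.09, 6.33 and 6.15 in +dox at 24 h. *Ttk* was thus lower with doxycycline at 0 h and higher at 24 h, with no overlap at either time. *Cdk1* (0.86), *Ccna2* (0.87), *Ccnb1* (0.88), *Aurka* (0.78), *Kif2c* (0.94), *Birc5* (0.69) and *Mki67* (0.72), a protein that coats mitotic chromosomes, were also called. *Bub1* (0.38) was not, and the smallest differences were in *Kif23* (0.03) and *Cdc25b* (0.12). The count was 14 without -dox 0 h replicate 3, without +dox 0 h replicate 3 or without -dox 24 h replicate 2. It was lower in edgeR's test of recovered reads, which holds a single +dox library at 0 h.

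Genes known to control this program were listed as 14 genes of G2 and M transcription and 12 brakes, 10 of which were in the table. The 14 include subunits of DREAM and MuvB, which repress or activate these genes, so their counts and medians have no single direction. Of the brakes 4 rose and 4 fell in *shScr* cells over 24 h (median 0.22), and 5 rose and 2 fell in -dox cells (median 0.41). Of all genes 30.6% rose and 30.1% fell in *shScr*, and 37.6% rose and 38.3% fell in -dox cells. *Foxm1*, which activates G2 and M promoters, was at 124, 134 and 124 in *shScr* at 0 h and 52.2, 36.5 and 32.2 at 24 h (-1.68), and at 80.7, 99.6 and 89.2 and then 17.9, 14.4 and 19.5 in -dox cells (-2.35). *Mybl2*, which encodes B-MYB, fell by 2.23 on the log2 scale in *shScr* and by 1.35 in -dox cells. *Cdkn1a*, the CDK inhibitor p21, rose from 172, 126 and 139 to 392, 412 and 494 in *shScr* (1.57) and from 212, 190 and 188 to 685, 757 and 727 in -dox cells (1.88). Of the 14 genes listed for transcription of G2 and M genes, 11 fell in *shScr* and 11 in -dox cells, and 2 (*E2f4* and *Lin37*) rose in -dox cells. The brakes that fell in *shScr* were *Chek1* (-2.16), a checkpoint kinase, *Pkmyt1* (-0.97), a kinase that inhibits CDK1, *Trp53* (-0.76), which encodes p53, and *Chek2* (-0.36), another checkpoint kinase. *Chek1* went from 56.7, 60.7 and 55 to 11, 13.7 and 12.7. *Wee1* was not in the table.

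With doxycycline at 24 h 2 of the 14 transcription genes were higher and 1 lower (median -0.14), and 3 of the 10 brakes were lower and none higher. Of all genes 10.6% were called higher and 10.9% lower. *Foxm1* was at 33.6, 28 and 26.1 against 17.9, 14.4 and 19.5 (0.74, adjusted p = 0.00087) and *Mybl2* was higher by 0.55 (adjusted p = 0.026), while *Nfya*, a subunit of NF-Y, was lower by 0.24 (adjusted p = 0.0473). The brakes that were lower were *Btg2* (-0.62) and *Gadd45a* (-0.42), growth-arrest genes, and *Trp53* (-0.52), and *Cdkn1a* was not called (-0.14). At 0 h 4 brakes were higher with doxycycline, *Cdkn1a* (0.39), *Gadd45a* (0.49), *Pkmyt1* (0.44) and *Fzr1* (0.28), an APC/C activator, and 2 were lower, *Trp53* (-0.53) and *Chek2* (-0.31). Of the transcription genes 4 were lower at 0 h and none higher (median -0.11). At that time 13.8% of all genes were called lower and 20.5% higher. In *shId1* cells *Foxm1* was not called at either time (adjusted p = 0.984 at 0 h and 0.997 at 24 h), and at 24 h it was at 48.4, 32.6 and 38.8 against 52.2, 36.5 and 32.2 in *shScr*. *Mybl2* was lower at 0 h (-0.38, adjusted p = 0.045) and *Chek1* was lower too (-0.46, adjusted p = 0.018), and they were the sole genes of the 2 lists called at 0 h. At 24 h *Lin54* was higher (0.38) and *Lin52* lower (-0.55), both subunits of MuvB, and no brake was called. With *shId1* 3.44% of all genes were called lower at 0 h, and 7.9% higher and 6.72% lower at 24 h.

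A longer list of other mitosis genes, 58 of 60 of them in the table, was tested alongside. In *shScr* 57 fell (median -1.42), against 30.1% of all genes, and in -dox cells 56 (median -2.72), against 38.3%. With doxycycline at 24 h 24 were higher and 1 lower (median 0.36), against 10.6% and 10.9% of all genes. With *shId1* at 24 h 5 were higher and 1 lower (median 0.17), against 7.9% and 6.72%. That count of higher genes was near the share of all genes. Genes of DNA replication, 35 of 38 in the table, also fell in *shScr* and -dox cells (35 of 35 in both, medians -1.61 and -2.07). With doxycycline 16 of the 35 were lower at 0 h (median -0.39), against 13.8% of all genes. At 24 h 3 were higher and 2 lower (median 0.04), beside the members' 26 higher and median of 0.44. With *shId1* 5 were lower at 0 h, against 3.44% of all genes, and at 24 h 1 was higher and 4 lower (median 0.03). The difference between the lists was not tested.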

How the data were processed

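RNA from 24 libraries of mouse epidermal progenitors was prepared by the authors with a stranded poly(A) kit and sequenced, with bcl2fastq 2.19.1.403, CASAVA and build GRCm38 named in the submitters' processing notes. The aligner and annotation were not given in the sources used here. The deposited signal values are the reads of each gene on the CPM scale, set against a library size that the authors scaled with edgeR's TMM method. The table is titled FPKM, although gene length does not enter its values. In 18 of 24 libraries 100% of the values were whole reads within 0.05 read, with 21442371 to 30353746 reads a library, and in 6 the step could not be checked. The 6 columns named H2BGFP were taken as *shScr*, the only group left without columns. Of 10818 gene IDs 10815 were found in GENCODE M21, which gave exon lengths, as all annotated exons of a gene merged.

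limma 3.58.1 in R 4.3.3, with a trended and robust prior, was fitted to log2(value + 0.5) of the 12 libraries of each experiment, for genes at 1 or more in at least 3 libraries, and p-values were adjusted over all genes by the Benjamini-Hochberg method. The 40 members found all passed this filter. There were 10 comparisons, and 1 was added after the data had been seen. The limma test was checked on data simulated with independent noise in each library. That check does not cover deviations that libraries share, and edgeR's test was not checked. edgeR 4.0.16 on the recovered reads, other scalings, pseudocounts and filters, array weights, a replicate block, length adjustment and leaving out each library were tried. Same-numbered *shScr* and *shId1* libraries deviated together (correlations of 0.751, 0.198 and 0.416 at 0 h and 0.742, 0.382 and 0.329 at 24 h). The main tests did not pair them, and fits with the replicate number as a block are among the alternatives.

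The members, roles, other lists and the motif search were chosen with earlier results of these data known. *Cdk1*, *Ccna2* and *Bub1*, which the study plots, were named throughout, together with the called gene of lowest adjusted p in each role, the extremes and the genes against the main direction. Genes named outside that rule were chosen after their values were seen.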

Additional observations from a re-analysis of the deposited data

Results flagged for a closer look

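The change over 24 h of high calcium differed between treated and control cells by a test of the difference itself. For *shId1* against *shScr* 3 of the 40 genes were called, with a shallower fall in *shId1* cells, *Cdk1* (log2 difference 0.54), *Incenp* (0.54) and *Kif23* (0.78). Of all genes tested 3.92% were called in that direction and 3.59% in the other.

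For ID1 +dox against -dox 20 genes were called, all with a shallower fall with doxycycline. That direction was called for 2.37% of all genes tested and the other for 8.08%. In the CDK1 engine the members called were *Cdk1* (0.86), *Ccna2* (0.87), *Ccnb1* (0.88), *Ccnb2* (0.51) and *Cdc25c* (0.71). Of the spindle assembly genes they were *Plk1* (0.78), *Aurka* (0.78), *Tpx2* (0.53), *Kif11* (0.95) and *Hmmr* (0.86), and of the checkpoint *Bub1b* (0.84), *Ttk* (1.02) and *Mad2l1* (0.76). The others were *Birc5* (0.69), *Cenpa* (0.64), *Nuf2* (0.65), *Kif2c* (0.94), *Kif20a* (1.01), *Racgap1* (0.50) and *Mki67* (0.72).

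The fall in ID1 -dox cells differed from that in *shScr* cells for 35 genes, all with a deeper fall in the -dox cells of the overexpression experiment. Among all genes tested, 29.7% were called in that direction and 23.1% in the other. Neither the -dox nor the *shScr* arm had received doxycycline. The constructs and experiments differed as well and cannot be told apart.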

How the results depend on the processing

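The 40 genes fell in all 4 conditions under nearly every alternative, with 39 called in a few settings. With every library scaled to the same sum the median of all genes moved by -0.17 in *shScr*, -0.26 in *shId1*, -0.34 in -dox and -0.35 in +dox cells over 24 h, and the members' medians were -1.57, -1.35, -3.14 and -2.35, or -1.40, -1.09, -2.80 and -2.00 relative to all genes. The *shScr* median was -1.52 in edgeR and -1.52 without the libraries numbered 1, and ran from -1.51 to -1.25 with single libraries left out. The edgeR fit lacked *shScr* 24 h replicate 1, whose reads were not recovered, so it is not a separate check of the method. Past 2-fold 24 genes fell in *shId1*.

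At 0 h the count for *shId1*, 1, was 0 under quantile normalization (where the median turned to 0.025), with every library scaled to the same sum and past 2-fold, 2 with the compared groups only, with length adjustment, with the replicate block, with the block within time and with both length adjustment and block, 3 in edgeR, 6 with array weights, and 0 to 2 with single libraries left out. At 24 h the count of 12 was 4 with the compared groups only, 31 with array weights, 0 past 2-fold, 6 with every library scaled to the same sum, 22 without the libraries numbered 1 (median 0.36), 13 with the replicate block and 16 with the block within time, and 5 to 15 with single libraries left out (median 0.063 to 0.31). Calls over all genes moved too. At 0 h the main fit called 435 of 10790 genes higher and 371 lower, and array weights called 4429. At 24 h the main fit called 852 higher and 725 lower, and array weights called 6122. The 24 h total was 3271 with the block within time and 971 of 10728 with the compared groups only. The difference between the falls, 3, was 1 under quantile normalization and with every library scaled to the same sum, 5 with all 24 libraries, 7 with the replicate block, 9 with length adjustment, 14 without the libraries numbered 1, with the block within time and with both block and length adjustment, 27 with array weights, 0 past 2-fold, and 2 to 9 with single libraries left out (median 0.14 to 0.39).

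For ID1 at 0 h the count of 11 was 17 with the compared groups only, 25 with array weights, 0 past 2-fold and 7 to 15 with single libraries left out. It was lower in edgeR, which held a single +dox library at 0 h. At 24 h 0 passed 2-fold, the median was 0.56 with array weights, and the count ran from 18 to 31 (median 0.39 to 0.53). The difference between the falls, 20, was 38 with array weights (median 0.84), 2 past 2-fold, 10 in edgeR, and 14 to 26 with single libraries left out (median 0.55 to 0.70). Same-numbered -dox and +dox libraries had correlations of 0.337, 0.561 and -0.156 at 0 h and -0.0811, 0.0237 and 0.326 at 24 h. With the replicate number as a block the 3 counts were 12, 27 and 24. The median difference between the falls of -dox and *shScr* cells was -1.25 under quantile normalization, -1.27 in edgeR, -1.56 with every library scaled to the same sum and -1.57 to -1.25 with single libraries left out. The array weights did not fully converge. The causes of these differences were not tested. Beyond *shId1* against *shScr* at 0 h and 24 h, calls over all genes in each setting are not given here. Those counts alone do not set the members apart from other genes. Over the single named genes 3006 of 3156 alternative values kept their call, 135 lost it and 15 gained it, and of 70 that changed sign none was of a called gene.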
